A study of Homo sapiens with 3 samples.

Results

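The cell cycle and spindle checkpoint genes described here are 48 genes named by their established roles in the cell cycle. The list was chosen with earlier results of these data known. They are 48 of the 46427 genes in the deposited table and fall into 7 role groups: the D-type cyclins and their kinases (5 genes), the E-type cyclins and CDK2 (3 genes), the CDK inhibitors (6 genes), the E2F transcription factors (5 genes), the replication licensing genes and PCNA (7 genes), the G2 and M cyclins with CDK1, the CDC25 phosphatases and their transcription factors (9 genes), and the spindle checkpoint and mitotic genes (13 genes). RNA was sequenced from MDA-MB-468 (MM468) cells, an established human triple-negative breast cancer line, and from 2 drug-resistant lines derived from it. Parental MM468 cells were not treated. Adriamycin-resistant MM468 cells were the survivors of exposure to adriamycin (doxorubicin) at 10 to 140 nmol/L, and paclitaxel-resistant MM468 cells were the survivors of exposure to paclitaxel at 2 to 320 nmol/L. There was 1 library per line, so no difference between lines has a replicate check, no SD can be given and no test was made.

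The cell cycle is driven by cyclin-dependent kinases (CDKs), which are active only when bound to a cyclin. D-type cyclins with CDK4 or CDK6 and E-type cyclins with CDK2 act in G1, where they phosphorylate the retinoblastoma protein and release E2F transcription factors, which switch on genes for DNA synthesis, among them the MCM helicase subunits. CDK1 with the B-type cyclins drives mitosis, and the spindle checkpoint holds cells in mitosis until every chromosome is attached to spindle microtubules, the structures that paclitaxel stabilises. Adriamycin poisons topoisomerase II and breaks DNA. MDA-MB-468 cells are known to have lost RB1.

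The counts summed to 32704885 in parental, 47567927 in adriamycin-resistant and 43242628 in paclitaxel-resistant MM468 cells. Epithelial and line markers fitted the label: KRT8 stood at 2030 to 2440 TPM (a level corrected for gene length and library size) and EGFR at 1150 to 1290 TPM in the 3 lines. The other epithelial markers EPCAM, CDH1, KRT18 and KRT19 were also expressed in every line. Their levels were not all alike: in paclitaxel-resistant cells KRT19 was 1.96-fold lower and CDH1 1.72-fold higher than in parental cells. The progesterone receptor gene PGR had 0, 0 and 7 counts, ESR1 stood at 1.45 to 2.55 TPM, and ERBB2 at 28.1 to 34.6 TPM. Of 4 genes of other cell types, PTPRC, PECAM1 and PDGFRB had 44 or fewer counts in every library, while the fibroblast collagen gene COL1A1 had 659, 1629 and 820 counts (7.81, 13.3 and 7.61 TPM in parental, adriamycin-resistant and paclitaxel-resistant cells). In bulk RNA, fewer cells in one phase of the cycle and less RNA per cell cannot be told apart.

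All but 1 of the 48 genes were expressed. CCND2, a D-type cyclin gene, had 0 counts in all 3 libraries. The median level of the 48 genes was 75.4 TPM in parental, 63.7 TPM in adriamycin-resistant and 61.3 TPM in paclitaxel-resistant cells. These lay at the 95.4, 94.7 and 93.5 percentile of all deposited genes, those at 0 TPM in the library included. Levels of 100 TPM or more were held by 13, 13 and 16 of the genes, and levels under 10 TPM by 4, 6 and 3. PCNA, the sliding clamp of DNA polymerase, was the most abundant of them in parental (491 TPM) and adriamycin-resistant cells (277 TPM), and CDC20, the activator of the anaphase-promoting complex, in paclitaxel-resistant cells (441 TPM). PCNA had rank 5 among the 48 in paclitaxel-resistant cells, at 278 TPM. Together the 48 genes held 0.533%, 0.483% and 0.525% of all counts.

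**Figure D1:**
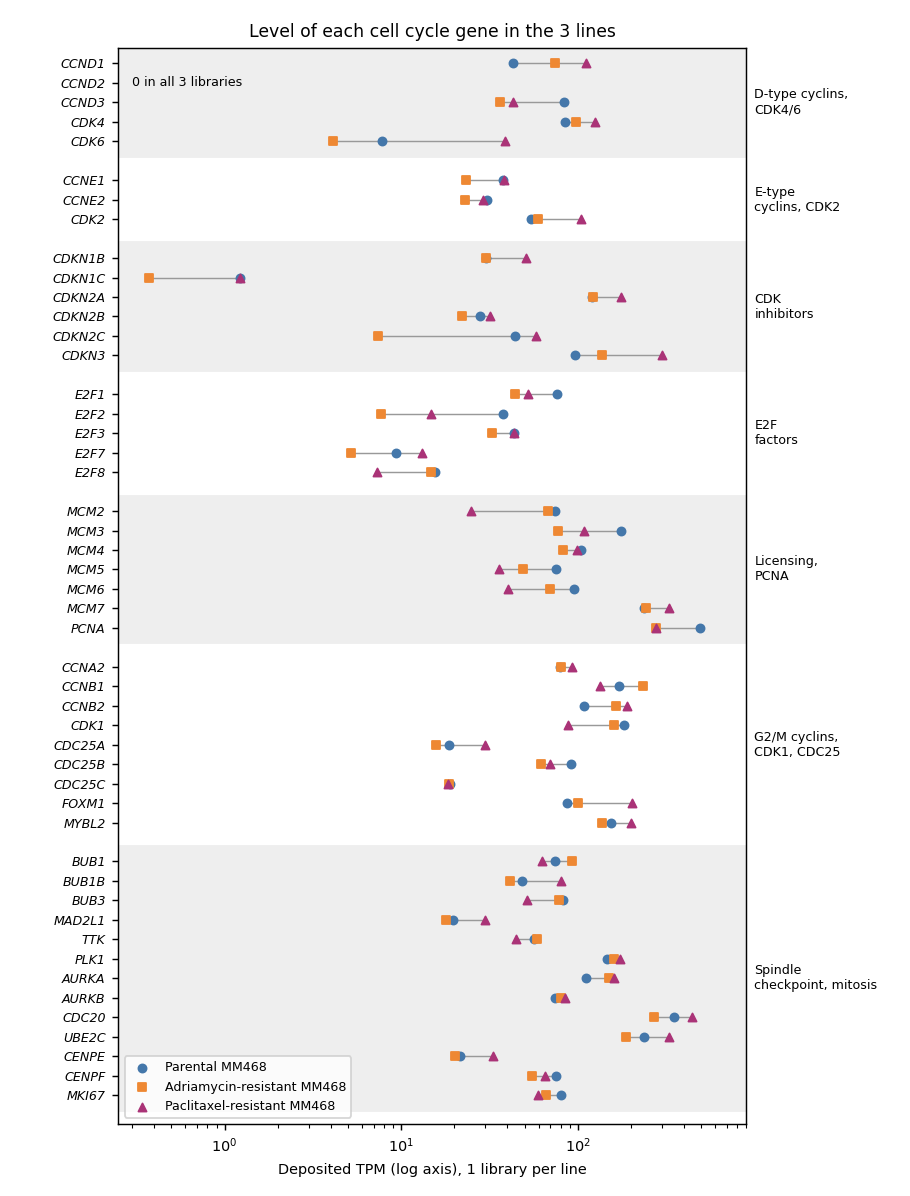
Deposited TPM (log axis) of each of the 48 cell cycle genes in the 3 lines, by role group, with 1 point per library and a grey line joining the lowest and the highest. The points of CDK6, CDKN2C, E2F2 and MCM2 lie far apart, those of CDC25C and AURKB lie close together, and CCND2 had 0 counts in all 3 libraries.

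Lines were compared by their counts after TMM scaling of the 3 libraries, and a gene entered a comparison when 1 of the 2 libraries had 10 or more counts. A difference of at least 2-fold was counted, and each fold is given with a 95% interval that covers counting error only. In adriamycin-resistant against parental cells, 0 of 47 cell cycle genes were at least 2-fold higher, where 11% of all 17950 genes were, and 5 of 47 were at least 2-fold lower, where 11.2% of all genes were. Their median log2 fold change was -0.12 against 0.03 for all genes. In paclitaxel-resistant against parental cells, 3 of 47 were at least 2-fold higher against 20.5% of all 19099 genes, and 9 of 47 were at least 2-fold lower against 13.5% of all genes. Their median log2 fold change was -0.12 against 0.07 for all genes. With library size in place of TMM these medians became 0.10 and 0.30, and the share of 2-fold differences over all genes that were higher went from 60.4% to 71.2%, so directions close to 0 in paclitaxel-resistant cells depend on the scaling. The share lower in either line, 10.6% and 19.1% of the cell cycle genes, lay near that of all genes in adriamycin-resistant cells and above it in paclitaxel-resistant cells.

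Both comparisons share the parental library, so values set side by side are not independent. Among the cell cycle genes, the counting interval of the ratio lay above 1 for 14, below 1 for 26 and included 1 for 7 in adriamycin-resistant cells. The same counts were 18, 26 and 3 in paclitaxel-resistant cells. Over all genes they were 6502, 6196 and 5252 of 17950 in adriamycin-resistant cells, and 7690, 7078 and 4331 of 19099 in paclitaxel-resistant cells. An interval that excludes 1 was therefore common among all genes. When the resistant lines were compared with each other, 3 of 47 genes were at least 2-fold higher in paclitaxel-resistant than in adriamycin-resistant cells against 20% of all 19327 genes, and 5 of 47 were at least 2-fold lower against 13.3%. There the share of higher genes among all 2-fold differences went from 60.1% to 71.4% with library size in place of TMM. The 3 higher genes were CDK6, CDKN1C and CDKN2C, and the 5 lower genes were CCNB1, CDK1, E2F8, MCM2 and MCM6.

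With a 1.5-fold threshold, 2 of the 47 genes were higher in adriamycin-resistant than in parental cells (19.8% of all genes) and 10 lower (19.7%). In paclitaxel-resistant cells 5 were higher (29.8%) and 15 lower (23.4%). Between the resistant lines 6 were higher (30.1%) and 9 lower (23.7%) in paclitaxel-resistant cells. Because the cell cycle genes are abundant, genes with 100 or more counts in 1 of the 2 libraries form a closer background. Of the 46 cell cycle genes among these, 0 were at least 2-fold higher in adriamycin-resistant cells (6.28% of all such genes) and 4 lower (7.85%). In paclitaxel-resistant cells 3 were higher against parental cells (11.6%) and 9 lower (12.7%), and against adriamycin-resistant cells 2 were higher (11.8%) and 5 lower (12.5%).

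**Figure D2:**
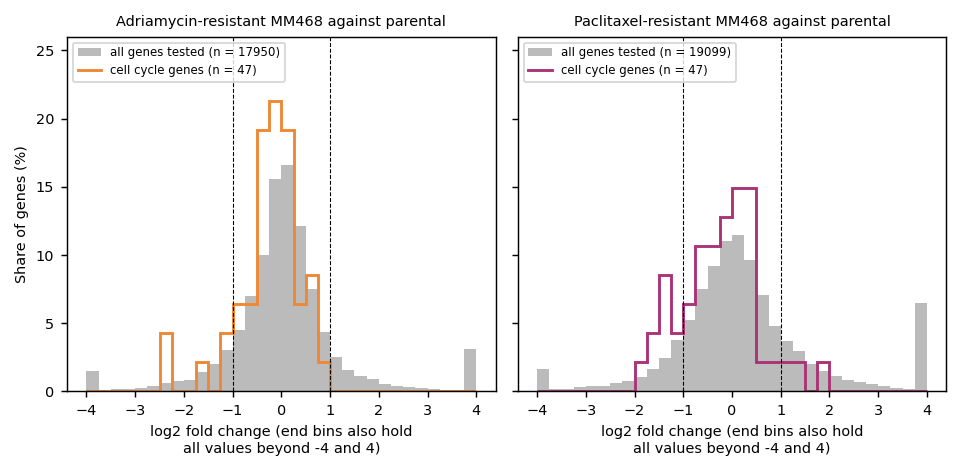
Share of genes (%) in bins of log2 fold change against parental MM468 cells, for all genes tested (grey) and for the 47 cell cycle genes tested (coloured outline), with dashed lines at 2-fold. In adriamycin-resistant cells no cell cycle gene lies past the upper line, and in paclitaxel-resistant cells 9 lie below the lower line and 3 above the upper one.

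**Figure D3:**
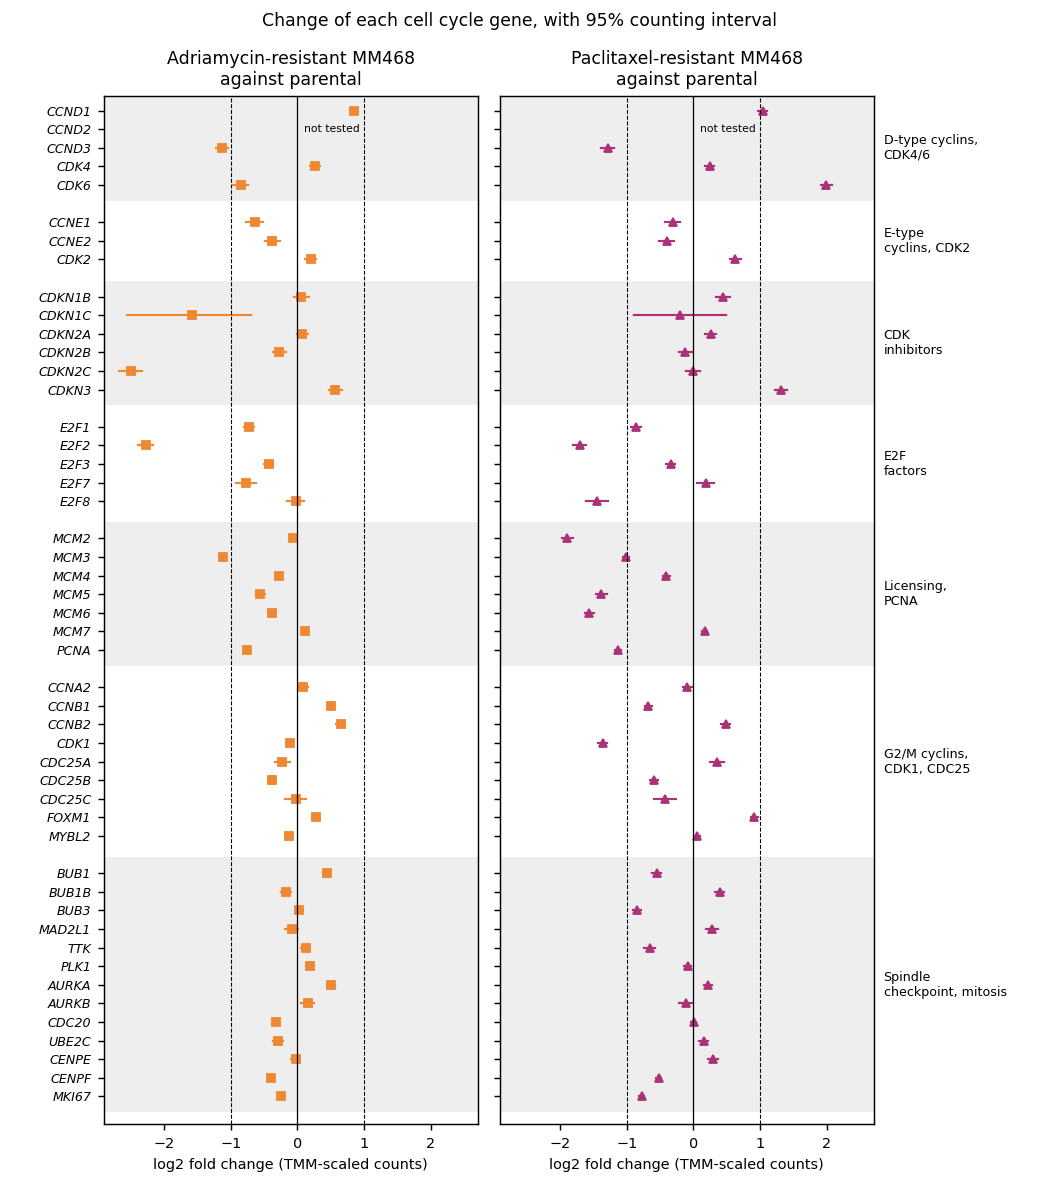
log2 fold change of each cell cycle gene against parental MM468 cells, by role group, with bars for the 95% counting interval and dashed lines at 2-fold. The licensing genes spread furthest below 0 in paclitaxel-resistant cells, and the 13 spindle checkpoint and mitotic genes lie inside the dashed lines in both lines.

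Among the D-type cyclins, which carry growth signals into the cycle, CCND1 was higher and CCND3 lower in both resistant lines. CCND1 stood at 43.0 TPM (2697 counts) in parental, 74.4 TPM (7097 counts) in adriamycin-resistant and 111 TPM (8532 counts) in paclitaxel-resistant cells. It was 1.80-fold higher in adriamycin-resistant cells (1.72 to 1.88) and 2.05-fold higher in paclitaxel-resistant cells (1.96 to 2.14), on either side of the 2-fold threshold. CCND3 stood at 83.1, 36.3 and 43.2 TPM in the same order, with 2501, 1666 and 1580 counts. It was 2.2-fold lower in adriamycin-resistant (2.06 to 2.34) and 2.44-fold lower in paclitaxel-resistant cells (2.29 to 2.60). CCND3 was therefore the more abundant D-type cyclin in parental cells and CCND1 in both resistant lines: the CCND1 to CCND3 ratio of TPM was 0.518, 2.05 and 2.56. The summed level of the D-type cyclins moved less, at 126, 111 and 154 TPM.

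CDK6, a kinase partner of the D-type cyclins, differed most between the resistant lines. It had 1348 counts (7.82 TPM) in parental, 1093 counts (4.10 TPM) in adriamycin-resistant and 8257 counts (38.9 TPM) in paclitaxel-resistant cells. Paclitaxel-resistant cells stood alone on the high side. CDK6 was 1.80-fold lower in adriamycin-resistant (1.67 to 1.96) and 3.97-fold higher in paclitaxel-resistant than in parental cells (3.75 to 4.21), and 7.17-fold higher in paclitaxel-resistant than in adriamycin-resistant cells (6.73 to 7.64). CDK4, its close relative, was the more abundant kinase in every line at 84.2, 97.3 and 125 TPM. Its log2 fold change was 0.27 in adriamycin-resistant and 0.24 in paclitaxel-resistant cells. CDK6 thus stood at 0.0928 of the CDK4 level in parental, 0.0422 in adriamycin-resistant and 0.312 in paclitaxel-resistant cells.

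The E-type cyclins and CDK2, which act at the entry to S phase, stayed within 2-fold in all 3 comparisons. CCNE1 had 1074, 1006 and 1332 counts, and CCNE2 1248, 1407 and 1454 counts. The log2 fold changes were -0.64 and -0.31 for CCNE1 and -0.38 and -0.40 for CCNE2 in adriamycin-resistant and paclitaxel-resistant cells. CDK2 had 1798, 3014 and 4276 counts, or 54.3, 59.9 and 105 TPM. It was 1.15-fold higher in adriamycin-resistant (1.08 to 1.22) and 1.54-fold higher in paclitaxel-resistant cells (1.46 to 1.63).

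The CDK inhibitors ranged in log2 fold change from -2.50 to 0.56 in adriamycin-resistant and from -0.21 to 1.31 in paclitaxel-resistant cells. CDKN2C, an INK4 inhibitor that binds CDK4 and CDK6, had 1326 counts (44.3 TPM) in parental, 343 counts (7.41 TPM) in adriamycin-resistant and 2032 counts (57.7 TPM) in paclitaxel-resistant cells. Adriamycin-resistant cells stood alone on the low side: CDKN2C was 5.66-fold lower there than in parental cells (5.02 to 6.39), the largest difference of the cell cycle genes against parental cells in either line. Its log2 fold change in paclitaxel-resistant cells was -0.01, and its level was 5.62-fold higher there than in adriamycin-resistant cells (5.01 to 6.32). CDKN2A and CDKN2B, INK4 genes that lie next to each other, stayed within 2-fold. CDKN2A stood at 121, 122 and 176 TPM and CDKN2B at 27.8, 22.1 and 32.0 TPM, with log2 fold changes of 0.07 and 0.26 for CDKN2A and -0.27 and -0.12 for CDKN2B. The antisense gene CDKN2B-AS1 had 135, 125 and 235 counts, and whether the counting used strand is not given in the sources used here.

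CDKN3, which encodes a phosphatase that removes an activating phosphate from CDK2 and CDK1, was highest in paclitaxel-resistant cells. It had 1219, 2639 and 4670 counts, or 96.4, 137 and 301 TPM. It was 1.48-fold higher in adriamycin-resistant (1.38 to 1.58) and 2.48-fold higher in paclitaxel-resistant than in parental cells (2.33 to 2.65). CDKN3 had rank 4 in level among the 48 genes in paclitaxel-resistant cells. CDKN1B, a CIP/KIP inhibitor of CDK2, had 1074, 1637 and 2247 counts and log2 fold changes of 0.06 and 0.44. CDKN1C, of the same family, was close to the limit of detection at 33, 16 and 44 counts. It was 3.0-fold lower in adriamycin-resistant than in parental cells, with a counting interval of 1.61 to 5.87, and 2.60-fold higher in paclitaxel-resistant than in adriamycin-resistant cells (1.44 to 4.95).

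**Figure D4:**
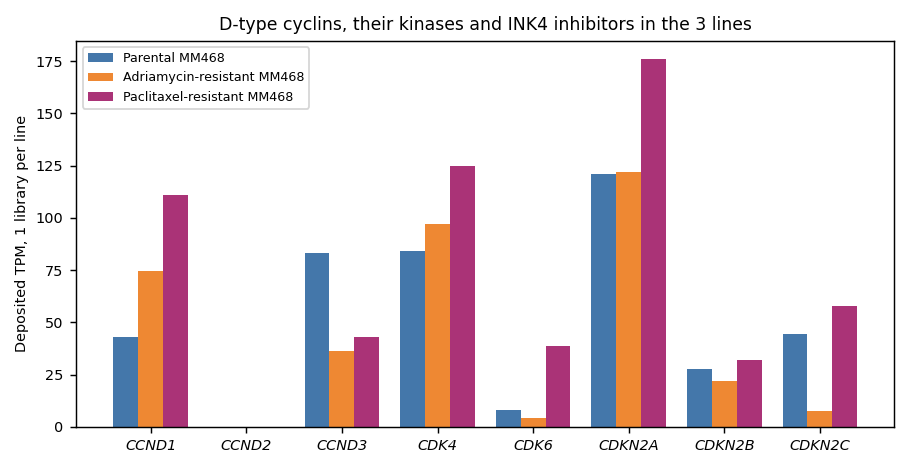
Deposited TPM of the D-type cyclins, CDK4, CDK6 and the INK4 inhibitors, 1 bar per line and 1 library per bar, with no error bar because there is no replicate. CDK6 reaches 38.9 TPM in paclitaxel-resistant cells against 7.82 and 4.10 TPM, and CDKN2C falls to 7.41 TPM in adriamycin-resistant cells.

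Of the E2F transcription factors, the activators E2F1, E2F2 and E2F3 were all lower in both resistant lines than in parental cells. E2F2 had 2808 counts (37.8 TPM) in parental, 849 counts (7.73 TPM) in adriamycin-resistant and 1329 counts (14.8 TPM) in paclitaxel-resistant cells. It was 4.84-fold lower in adriamycin-resistant (4.48 to 5.23) and 3.26-fold lower in paclitaxel-resistant cells (3.05 to 3.48). E2F1 stood at 76.0, 44.3 and 52.4 TPM and was 1.65-fold (1.56 to 1.74) and 1.82-fold lower (1.72 to 1.91). E2F3 was 1.35-fold (1.29 to 1.42) and 1.27-fold lower (1.21 to 1.33), although its TPM of 43.8 and 43.5 in parental and paclitaxel-resistant cells were alike. The summed TPM of the 3 activators was 158, 84.6 and 111.

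The repressors E2F7 and E2F8, which switch E2F targets off late in S phase, each had a lower level than parental cells in 1 resistant line. E2F8 had 839, 1204 and 473 counts, or 15.5, 14.8 and 7.25 TPM. Its log2 fold change was -0.03 in adriamycin-resistant cells, and it was 2.73-fold lower in paclitaxel-resistant cells (2.44 to 3.07). E2F7 had 787, 672 and 1377 counts. It was 1.71-fold lower in adriamycin-resistant cells (1.54 to 1.90), with a log2 fold change of 0.18 in paclitaxel-resistant cells, and it was 1.94-fold higher in paclitaxel-resistant than in adriamycin-resistant cells (1.77 to 2.14).

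The replication licensing genes and PCNA were the group furthest below parental cells in the paclitaxel-resistant line. There 5 of the 7 were at least 2-fold lower, where 13.5% of all genes were, with a median log2 fold change of -1.14. This median became -0.91 with library size in place of TMM, -0.82 with TPM and -0.89 with FPKM. In adriamycin-resistant cells 1 of the 7 was at least 2-fold lower (14.3%, near the 11.2% of all genes), and the median was -0.39. MCM2 to MCM7 encode the 6 subunits of the ring-shaped helicase that is loaded at replication origins in equal numbers. MCM2 had 3756, 5247 and 1564 counts, or 74.0, 67.9 and 25 TPM. It was 3.70-fold lower in paclitaxel-resistant than in parental cells (3.49 to 3.93) and 3.54-fold lower than in adriamycin-resistant cells (3.34 to 3.74), while its log2 fold change between adriamycin-resistant and parental cells was -0.07. Paclitaxel-resistant cells stood alone on the low side for MCM2.

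MCM6 had 5285, 5912 and 2759 counts, or 95.3, 70.0 and 40.4 TPM, and MCM5 had 3816, 3800 and 2263 counts, or 75.4, 48.9 and 36.0 TPM. MCM6 was 2.95-fold lower in paclitaxel-resistant than in parental cells (2.82 to 3.09), and MCM5 2.60-fold lower (2.47 to 2.74). Both stood between the other lines in adriamycin-resistant cells, where MCM6 was 1.31-fold (1.26 to 1.36) and MCM5 1.47-fold lower than in parental cells (1.40 to 1.54). MCM3 went the other way round, lowest in adriamycin-resistant cells: it had 8009, 5412 and 6132 counts, or 176, 77.6 and 109 TPM. It was 2.17-fold lower in adriamycin-resistant (2.09 to 2.24) and 2.01-fold lower in paclitaxel-resistant cells (1.95 to 2.08), the last of these at the threshold. PCNA had 9275, 8004 and 6512 counts and was 1.70-fold (1.65 to 1.75) and 2.2-fold lower (2.13 to 2.27).

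MCM7 did not share the lower levels of the other subunits. It had 8935, 14100 and 15503 counts, or 238, 245 and 331 TPM, with log2 fold changes of 0.11 and 0.17. MCM4 lay between, at log2 fold changes of -0.28 and -0.41. Per transcript level, MCM2 stood at 0.311 of MCM7 in parental, 0.278 in adriamycin-resistant and 0.0755 in paclitaxel-resistant cells. The MCM6 to MCM7 ratio was 0.400, 0.286 and 0.122, and the MCM3 to MCM7 ratio was 0.738, 0.317 and 0.328. These ratios within a library do not depend on the scaling between libraries. The summed level of the 6 subunits was 763, 591 and 639 TPM.

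**Figure D5:**
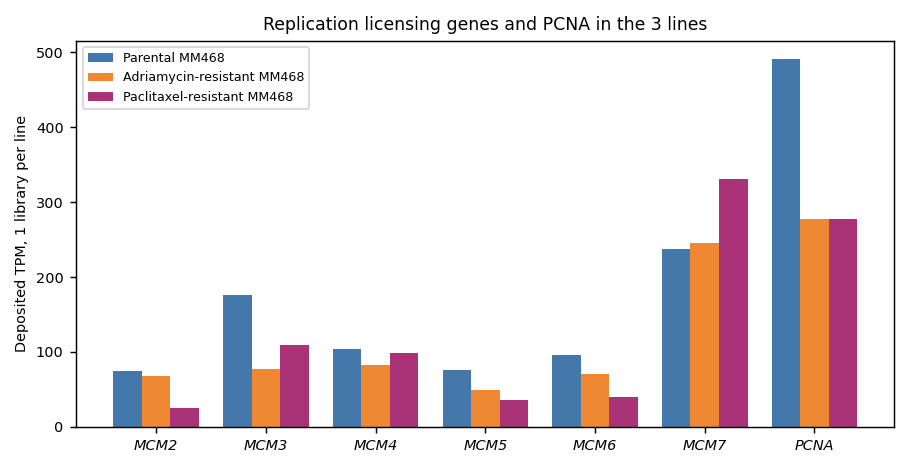
Deposited TPM of MCM2 to MCM7 and PCNA, 1 bar per line and 1 library per bar, with no error bar because there is no replicate. MCM2, MCM5 and MCM6 step down to their lowest level in paclitaxel-resistant cells, MCM3 is lowest in adriamycin-resistant cells, and MCM7 is highest in paclitaxel-resistant cells at 331 TPM.

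Promoter sequences are shown for licensing genes and E2F2 because an E2F motif was found in them whether the gene was at least 2-fold lower in a resistant line (MCM2, MCM3, MCM6, E2F2) or not (MCM7). RefSeq promoters of GRCh38.p14 (250 bases before to 50 bases after the start of transcription) were matched by gene ID for 35 of the 48 genes. CCND1, CCND2, CCNE2, CDK2, CDKN1C, E2F8, MCM4, MCM5, FOXM1, BUB3, TTK, AURKA and UBE2C had no entry in the table. The letters TTTCGCGC or TTTGGCGC (E2F) were searched on both strands, each motif on its own, so that matches may overlap. They were found in 4 of 5 promoters of the licensing genes and PCNA (80%), 2 of 4 promoters of E2F genes and 8 of the 35 in all (22.9%), against 1.18% of 27305 promoters of all genes. The windows below run from 120 bases before to 20 bases after the start, written 5′ to 3′ on the gene's strand, with E2F matches on either strand in capitals. In MCM2 and MCM6 matches on opposite strands overlap.
MCM2 (chr3:127598291-127598430, plus strand): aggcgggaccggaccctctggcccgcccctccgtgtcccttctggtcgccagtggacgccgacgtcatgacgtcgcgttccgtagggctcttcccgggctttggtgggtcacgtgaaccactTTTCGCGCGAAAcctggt
MCM3 (chr6:52284723-52284862, minus strand): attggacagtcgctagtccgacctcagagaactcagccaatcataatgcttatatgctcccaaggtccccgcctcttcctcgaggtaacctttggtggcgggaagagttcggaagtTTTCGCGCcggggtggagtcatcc
MCM6 (chr2:135876424-135876563, minus strand): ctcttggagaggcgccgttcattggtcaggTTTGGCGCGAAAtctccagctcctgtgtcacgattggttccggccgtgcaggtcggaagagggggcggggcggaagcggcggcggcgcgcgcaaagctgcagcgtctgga
MCM7 (chr7:100101378-100101517, minus strand): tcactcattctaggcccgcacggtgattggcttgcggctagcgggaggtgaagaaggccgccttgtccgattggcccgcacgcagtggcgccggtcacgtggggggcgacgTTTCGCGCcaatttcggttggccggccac
E2F2 (chr1:23531214-23531353, minus strand): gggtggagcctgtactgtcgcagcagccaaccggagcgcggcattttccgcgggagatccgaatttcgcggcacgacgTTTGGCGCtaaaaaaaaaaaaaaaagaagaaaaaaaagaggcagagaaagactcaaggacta
A match describes these letters and is no evidence of binding, and the 4 licensing genes that hold one ranged in log2 fold change from -1.89 to 0.17 in paclitaxel-resistant cells.

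Of the 9 genes that act in G2 and mitosis ahead of the spindle checkpoint, 1 was at least 2-fold lower in paclitaxel-resistant than in parental cells (11.1%, near the 13.5% of all genes). None was past 2-fold in adriamycin-resistant cells, where 11% of all genes were higher and 11.2% lower. In paclitaxel-resistant against adriamycin-resistant cells 2 were lower (22.2%, against 13.3% of all genes). CDK1, the kinase that starts mitosis, had 5073 counts (182 TPM) in parental, 6843 counts (160 TPM) in adriamycin-resistant and 3042 counts (88.0 TPM) in paclitaxel-resistant cells. It was 2.57-fold lower in paclitaxel-resistant than in parental cells (2.46 to 2.69), with a log2 fold change of -0.12 in adriamycin-resistant cells. Relative to CDK2, its level was 3.34, 2.67 and 0.836, so CDK1 was the more abundant of the pair in parental and adriamycin-resistant cells and CDK2 in paclitaxel-resistant cells.

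The B-type cyclins, the partners of CDK1, parted in paclitaxel-resistant cells. CCNB1 had 5141, 10650 and 4964 counts, or 171, 233 and 134 TPM. It was 1.42-fold higher in adriamycin-resistant (1.37 to 1.46) and 1.6-fold lower in paclitaxel-resistant than in parental cells (1.54 to 1.66), and 2.26-fold lower in paclitaxel-resistant than in adriamycin-resistant cells (2.19 to 2.34). CCNB2 had 2407, 5517 and 5182 counts, or 109, 165 and 191 TPM. It was 1.57-fold (1.49 to 1.64) and 1.40-fold higher (1.33 to 1.47) than in parental cells. The CCNB1 to CCNB2 ratio of TPM was 1.57, 1.42 and 0.702.

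FOXM1, the transcription factor of many G2 and M genes, had 4559, 8060 and 13220 counts, or 86.5, 101 and 204 TPM. It was 1.21-fold higher in adriamycin-resistant (1.16 to 1.25) and 1.88-fold higher in paclitaxel-resistant cells (1.82 to 1.95), and its log2 fold change of 0.91 in the latter passed 2-fold at 1.13 with library size in place of TMM. MYBL2, which acts with FOXM1, had log2 fold changes of -0.12 and 0.05. CDC25B, one of the phosphatases that activate CDK1, had 4300, 4805 and 4419 counts and was 1.31-fold (1.26 to 1.36) and 1.5-fold lower (1.44 to 1.57). CDC25A, CDC25C and CCNA2 had log2 fold changes between -0.42 and 0.36 in both lines.

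None of the 13 spindle checkpoint and mitotic genes was past 2-fold in any of the 3 comparisons. Over all genes, 11% lay past it upward and 11.2% downward in adriamycin-resistant against parental cells. These shares were 20.5% and 13.5% in paclitaxel-resistant against parental cells, and 20% and 13.3% against adriamycin-resistant cells. With 100 or more counts they were 6.28% and 7.85%, 11.6% and 12.7%, and 11.8% and 12.5% in the same order. The median log2 fold change of the 13 genes was -0.03 in adriamycin-resistant cells and -0.09 in paclitaxel-resistant cells. The latter became 0.13 with library size in place of TMM. AURKA, a kinase of the spindle poles, was the highest in adriamycin-resistant cells at 0.51 on the log2 scale and had 3643, 7579 and 6555 counts. CENPF, a kinetochore protein, was the lowest there at 1.31-fold lower (1.28 to 1.35), with 11451, 12746 and 12289 counts. In paclitaxel-resistant cells BUB1B was the highest and BUB3 the lowest.

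BUB1B, which encodes the checkpoint kinase-like protein BUBR1, had 2634, 3421 and 5348 counts, or 48.6, 41.4 and 80.0 TPM. It was 1.13-fold lower in adriamycin-resistant cells and 1.32-fold higher in paclitaxel-resistant cells (1.26 to 1.38). A separately listed readthrough gene, BUB1B-PAK6, had 95, 9 and 63 counts. BUB3, the partner of BUB1 and BUBR1 at kinetochores, had 5052, 7527 and 4344 counts, or 82.9, 78.5 and 51.5 TPM. It was 1.79-fold lower in paclitaxel-resistant cells (1.72 to 1.87), and its log2 fold change in adriamycin-resistant cells was 0.03, which turned to -0.08 on the TPM scale.

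BUB1 had 3906, 7746 and 4110 counts, or 73.9, 92.8 and 63.0 TPM, and was 1.99-fold lower in paclitaxel-resistant than in adriamycin-resistant cells (1.91 to 2.06), just inside the threshold. It and the other genes of this paragraph were picked after their values were seen. TTK, the kinase that starts checkpoint signalling, stood at 56.2, 59.1 and 44.5 TPM and was 1.58-fold lower in paclitaxel-resistant than in parental cells (1.49 to 1.67). MAD2L1, whose product inhibits CDC20, stood at 19.7, 17.9 and 29.9 TPM, with log2 fold changes of -0.09 and 0.28. CDC20 itself stood at 352, 271 and 441 TPM, with log2 fold changes of -0.32 and 0.00. MKI67, the gene of the proliferation antigen Ki-67, had 15127, 18672 and 13615 counts and was 1.19-fold and 1.71-fold lower. BUB1, TTK, BUB3 and MKI67 were therefore lowest in the paclitaxel-resistant line, and MAD2L1, BUB1B and CDC20 were highest in it by TPM.

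Promoters of mitotic genes are shown because other motifs were found in them, again in genes that were lower (CCNB1, MKI67) and higher (CCNB2, BUB1B) in paclitaxel-resistant cells. The letters searched, on both strands and each motif on its own, were CCAAT, and TTTGAA or TTCGAA (the cell cycle genes homology region, CHR). A CHR match was found in 7 of 9 promoters of spindle checkpoint and mitotic genes (77.8%) and 12 of the 35 in all (34.3%), against 16.6% of the promoters of all genes. In the G2 and M group, to which CCNB1 and CCNB2 belong, 2 of 8 promoters held one (25%). A CCAAT match was found in 7 of the 9 and 21 of the 35 (60%), against 35.7% of all. An E2F match was found in none of the 9. CCAAT and CHR matches are in capitals below. CCNB1 held CCAAT alone and BUB1B held CHR alone, and in MKI67 the run of capitals nearest the start holds both, overlapping by a letter.
CCNB1 (chr5:69167030-69167169, plus strand): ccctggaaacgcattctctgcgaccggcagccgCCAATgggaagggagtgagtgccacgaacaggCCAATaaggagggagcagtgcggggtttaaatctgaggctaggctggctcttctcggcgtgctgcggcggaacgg
CCNB2 (chr15:59105026-59105165, plus strand): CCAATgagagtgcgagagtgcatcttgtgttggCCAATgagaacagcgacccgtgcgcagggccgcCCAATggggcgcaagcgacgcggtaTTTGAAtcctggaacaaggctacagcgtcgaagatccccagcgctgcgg
PLK1 (chr16:23678769-23678908, plus strand): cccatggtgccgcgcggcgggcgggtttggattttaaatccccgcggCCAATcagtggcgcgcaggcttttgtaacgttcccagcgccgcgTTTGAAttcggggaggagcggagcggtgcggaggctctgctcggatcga
BUB1B (chr15:40160949-40161088, plus strand): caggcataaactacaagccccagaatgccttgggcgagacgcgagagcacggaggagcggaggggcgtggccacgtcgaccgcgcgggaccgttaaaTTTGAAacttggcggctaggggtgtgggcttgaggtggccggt
MKI67 (chr10:128126404-128126543, minus strand): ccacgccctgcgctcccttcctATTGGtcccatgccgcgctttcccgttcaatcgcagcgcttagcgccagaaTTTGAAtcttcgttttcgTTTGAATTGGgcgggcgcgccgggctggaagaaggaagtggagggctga

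A wider list of 94 other cell cycle genes was also chosen by role, with earlier results of these data known. From lowest to highest log2 fold change it spanned less than the 48 genes in both resistant lines. Its interquartile range was 0.55 against 0.53 in adriamycin-resistant cells and 0.80 against 0.98 in paclitaxel-resistant cells. In adriamycin-resistant cells 4 of the 94 were at least 2-fold lower (4.26%, where 11.2% of all genes were) and 0 higher (11% of all genes), with a median log2 fold change of 0.03. In paclitaxel-resistant cells 4 were lower (4.26%, against 13.5% of all genes) and 3 higher (3.19%, against 20.5%), with a median of -0.06. Of these, the 35 S phase genes had a median of 0.01 in adriamycin-resistant and -0.27 in paclitaxel-resistant cells. In the latter 3 were at least 2-fold lower, against 5 of the 7 in the group of MCM genes and PCNA. The other licensing genes, ORC1 to ORC6, CDC6 and CDT1, all stayed within 2-fold there, from -0.75 for CDT1 to 0.84 for ORC5. The 45 G2 and M genes had medians of 0.05 and -0.05.

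RB1 had 66, 45 and 64 counts, or 0.936, 0.415 and 0.733 TPM. CDKN1A, a CIP/KIP inhibitor and target of p53, had 956, 411 and 1857 counts. It was 3.40-fold lower in adriamycin-resistant and 1.26-fold higher in paclitaxel-resistant than in parental cells, so adriamycin-resistant cells were the low line for both CDKN1A and CDKN2C. In adriamycin-resistant cells the highest others with 100 or more counts were E2F5, DBF4 and MYC, at log2 fold changes of 0.92, 0.76 and 0.74. Beside CDKN1A, the lowest were CDCA8, a subunit of the chromosomal passenger complex (2.39-fold lower), and CLSPN, a replication checkpoint adaptor (2.10-fold lower).

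In paclitaxel-resistant cells the highest of the wider list were SKP2, whose product directs CDKN1B for destruction (2.16-fold higher), HMMR, a spindle protein gene (2.07-fold higher), and SGO1, a protector of centromere cohesion (2.01-fold higher). The lowest were SPC24, a subunit of the NDC80 kinetochore complex (2.78-fold lower), GINS2, a subunit of the replicative helicase (2.61-fold lower), and RRM1, the large subunit of ribonucleotide reductase (2.40-fold lower). GINS2 had 1520, 2422 and 898 counts, and paclitaxel-resistant cells were again the low line, as for MCM2 and MCM6.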

How the data were processed

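RNA was sequenced from 1 library each of parental, adriamycin-resistant and paclitaxel-resistant MM468 cells, with a stranded mRNA kit per the labels. The authors deposited 1 table of 46427 genes holding whole-number read counts, which are not normalized, and the FPKM and TPM values that they computed from them. The submitters' processing notes name Trimmomatic 0.39, HISAT2 2.2.1, StringTie 2.2.1 and GRCh38, without their order. Whether drug was present at harvest, and whether counting used strand, are not given in the sources used here. The paper's methods name no test for the RNA-seq.

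Samples were grouped by the treatment in their labels. The comparison of counts used edgeR 4.0.16 in R 4.3.3. TMM factors (0.948, 0.954 and 1.11) were computed on the 3 libraries together, genes with 10 or more counts in 1 of the 2 libraries compared were kept, and 0.125 was the prior count of the log2 fold changes. With 1 library per line the quasi-likelihood test of edgeR has no residual degrees of freedom, so no p-value is given. Intervals of a ratio are 95% intervals from the exact binomial distribution of its counts. They and the floor of 3 counts (a CPM of 0.0968, 0.0661 and 0.0627) cover counting error only. Levels were compared between genes as deposited TPM. The steps were tested on simulated data with counting error only and 200 changed genes per comparison, equally many raised and lowered. That check covers neither variation between cultures nor an excess of higher genes, as seen in paclitaxel-resistant cells.

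Values are given for every member at least 2-fold apart in any comparison, for the highest and lowest log2 fold change of each role group against parental cells, and from the wider list for RB1, CDKN1A and the 3 highest and 3 lowest genes with 100 or more counts. Other genes, and the TPM ratios and sums, were chosen after their values were seen. The members and gene lists were themselves chosen with earlier results of these data known. Tried in their place were scaling by library size alone, by DESeq2 1.42.0 size factors or by TMM on 2 libraries, a prior count of 2, other count minimums and fold thresholds, and TPM or FPKM with a pseudocount. Figures were drawn with matplotlib 3.10.9.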

Additional observations from a re-analysis of the deposited data

Results flagged for a closer look

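Some genes stood on opposite sides of parental MM468 cells in the 2 resistant lines, with counting intervals that exclude a ratio of 1 in both and at least 2-fold between the resistant lines. Each is a difference between single libraries and was not tested, and both sides share the parental library. The share of all genes that meet these conditions was not counted, so the numbers found in either list have no background to be read against. Of the 48 cell cycle genes, CDK6 and CCNB1 did so. CDK6 had log2 fold changes of -0.85 in adriamycin-resistant and 1.99 in paclitaxel-resistant cells, and of 2.84 between them. CCNB1 had 0.50 and -0.68, and -1.18 between the resistant lines.

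Of the wider list of 94, 5 genes did so. CDKN1A had log2 fold changes of -1.77 and 0.33, and of 2.10 between the resistant lines. CDC45, a subunit of the replicative helicase, had 0.30 and -0.71 (-1.01 between them), and GINS2, another subunit, had 0.12 and -1.38 (-1.51 between them). ZWILCH, a kinetochore gene, had 0.58 and -0.83 (-1.41 between them), and CDC23, a subunit of the anaphase-promoting complex, had 0.59 and -0.63 (-1.22 between them). The 7 genes include 5 that were lower and 2 that were higher in paclitaxel-resistant than in adriamycin-resistant cells.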

How the results depend on the processing

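With 1 library per line, no library could be left out, and depth sets only the counting error. No paired analysis was possible because no line has a replicate. The fold threshold set the counts most: at 1.5-fold, 2 members were higher and 10 lower in adriamycin-resistant, 5 and 15 in paclitaxel-resistant than in parental cells, and 6 and 9 in paclitaxel-resistant than in adriamycin-resistant cells. At 4-fold, 2 were lower in adriamycin-resistant cells, 0 higher and 0 lower in paclitaxel-resistant cells, and between the resistant lines 2 were higher (CDK6 and CDKN2C) and 0 lower. The median of the members in paclitaxel-resistant against parental cells turned from -0.12 to 0.10 with library size only, 0.20 and 0.20 with TPM at pseudocounts of 1 and 0.1, and 0.11 with FPKM. Against adriamycin-resistant cells it turned from -0.02 to 0.19, 0.35, 0.36 and 0.21 in the same order. The median of all genes moved up too, from 0.07 to 0.30, 0.27, 0.39 and 0.15 against parental cells and from 0.07 to 0.28, 0.30, 0.43 and 0.14 against adriamycin-resistant cells. Library size only leaves out the TMM factors by construction, and the cause of the rest of the shift with TPM and FPKM was not tested. With FPKM, 5 members were at least 2-fold lower in paclitaxel-resistant than in parental cells (4.62% of all genes), and 1 was lower than in adriamycin-resistant cells (4.04%). Between the resistant lines, library size only left 3 lower (9.81% of all genes). TPM at pseudocounts of 1 and 0.1 left 1 and 2 lower (4.51% and 7.48% of all genes) and gave 5 and 6 higher (14.7% and 26.9%). The shares of all genes thus moved with the unit too, and those at 4-fold were not computed.

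Of 223 values of members past 2-fold over the alternatives of scaling, filter and unit, 194 stayed past 2-fold and 0 changed sign. CCND3, CDKN2C, E2F2 and MCM3 in adriamycin-resistant cells, and CCND1, CDK1, CDK6, CDKN3, E2F2, MCM2, MCM5 and MCM6 in paclitaxel-resistant cells, stayed past 2-fold against parental cells under all 9 alternatives. MCM3 and PCNA in paclitaxel-resistant cells did so under 5 of 9, CCND3 under 6 and E2F8 under 8, and CDKN1C in adriamycin-resistant cells under 6 of 8. Between the resistant lines CDK6, CDKN2C and MCM2 did so under 9, E2F8 under 7, CDK1 under 6, CCNB1 and MCM6 under 5 of 9, and CDKN1C under 6 of 8.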

Other observations

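The members that differed most from parental MM468 cells were set beside the 5 tested genes on each side of them in the RefSeq annotation of GRCh38.p14, a choice made after their values were seen. The values are descriptions of single libraries.

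CDK6 lies on chromosome 7. In paclitaxel-resistant against parental cells its 10 neighbours had log2 fold changes from 0.19 to 4.95 with a median of 1.03, and 6 of the 10 exceeded 2-fold, where 20.5% of all genes were that much higher. None of the 10 was 2-fold lower. The highest were TFPI2, a serine protease inhibitor gene, with 1110, 1757 and 53098 counts in parental, adriamycin-resistant and paclitaxel-resistant cells, and GNG11, a G protein subunit gene, with 341, 480 and 11223 counts. In adriamycin-resistant cells, where CDK6 was at -0.85, the median of the same neighbours was 0.23.

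CDKN2C lies on chromosome 1. In adriamycin-resistant against parental cells its 10 neighbours had a median log2 fold change of -1.15, with 6 at least 2-fold lower, where 11.2% of all genes were, and 1 higher. The neighbours were not alike: DMRTA2 had 0, 111 and 34 counts and SPATA6 had 31, 0 and 69 in parental, adriamycin-resistant and paclitaxel-resistant cells, and TRABD2B and LOC644462, with 57 or fewer counts in every library, were at 0.27 and 0.26. EPS15-AS1 was at -1.62 with 57, 27 and 104 counts. Of the others, RNF11 was at -1.26, EPS15 at -1.24, OSBPL9 at -1.05, FAF1 at -0.97 and TTC39A at -2.39, with 418 to 9194 counts over the 3 libraries. In paclitaxel-resistant cells, where CDKN2C was at -0.01, the median of the neighbours was -0.31. E2F2, on the same chromosome, was at -2.27 in adriamycin-resistant cells, and all 10 of its neighbours lay below 0 there, from -1.50 to -0.22, with a median of -0.82 and 4 at least 2-fold lower, against the same 11.2% of all genes. In paclitaxel-resistant cells E2F2 was at -1.70 and its neighbours had a median of -0.32.

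Ratios of TPM within a library were also taken for other pairs of members. CDKN2C stood at 1.59 of the CDKN2B level in parental, 0.334 in adriamycin-resistant and 1.80 in paclitaxel-resistant cells. BUB1 stood at 1.52, 2.24 and 0.787 of the BUB1B level, and E2F2 at 0.863, 0.238 and 0.340 of the E2F3 level. These pairs were picked after their values were seen.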
